A study of Mus musculus with 12 samples.

Results

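Nuclear and cytoplasmic RNA of mouse promyelocytes were compared miRNA by miRNA. Promyelocytes are early granulocyte precursors of the bone marrow, which follow myeloblasts and precede myelocytes. Their miRNAs were read with TaqMan low-density array (TLDA) RT-qPCR, in which every miRNA is amplified in a separate well. The cycle threshold (CT) is the amplification cycle at which the product becomes detectable, and a lower CT means more template. The miRNAs described here had to carry a name and a CT under 30 in nuclear or cytoplasmic promyelocyte RNA, and 90 of 269 named assays met this, out of 593 assays in all. Of the 90, 64 were assigned to array card A and 26 to card B. No label gives the card, which was inferred from the deposited order and the decimals of the CTs. A CT under 30 was read in cytoplasmic RNA for 87 and in nuclear RNA for 40, with 37 under 30 in both. The other members entered through the fraction in which they were read earlier, 50 through the cytoplasmic well alone and 3 (miR-696, miR-467a* and miR-760) through the nuclear well alone.

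The series holds 12 samples, with nuclear, cytoplasmic and whole cell RNA from each of 4 stages of C57BL/6 bone marrow: LSK cells (lineage-negative, Sca1-positive and cKit-positive, which include the stem cells) and the maturing promyelocytes, myelocytes and granulocytes. The mice were untreated as far as the labels say, their ages are not given, and the cells were separated by FACS before they were fractionated with the PARIS kit. There was 1 sample for each fraction and stage and 1 well for each assay, so that no difference below has a replicate check and no test was made. The labels state 100 ng of RNA for every reverse transcription, whereas the study's methods describe cell-equivalent volumes of the fractions. Which of these scales the CTs carry was not settled, and a shift of all ratios by 1 constant factor is therefore possible. The study found each fraction enriched in its control RNA and protein, and calls perfect fractionation technically difficult. It proposes that most of the low nuclear signal was cytoplasmic miRNA contaminating the nuclear fraction. This was not tested here, so that a nuclear CT does not stand for nuclear miRNA alone.

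A miRNA is cut from a hairpin in the primary transcript by Drosha in the nucleus and by Dicer in the cytoplasm, and its mature strand then guides an Argonaute protein to mRNAs through the seed, bases 2 to 8. Most mature miRNAs act in the cytoplasm, while Argonaute proteins and some mature miRNAs are also found in nuclei. The strand that is kept less often is the passenger strand, starred in the names used here. In this section the log2 nuclear:cytoplasmic ratio is the cytoplasmic CT minus the nuclear CT of the same miRNA. A ratio of 0 means equal CTs, a negative ratio means more template in the cytoplasmic well, and 1 unit is 2-fold at full amplification.

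Of the 90 names, 68 had a mature sequence in the RefSeq tables (GRCm38.p6), and those on which the comparison turned are printed 5′ to 3′ with the seed in capitals. The first group holds miRNAs with a nuclear CT below or little above the cytoplasmic CT, and miR-27b, whose nuclear CT was well above it, as the near-identical partner of miR-27a.
miR-706: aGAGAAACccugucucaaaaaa
miR-760: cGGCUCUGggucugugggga
miR-494: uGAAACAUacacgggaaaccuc
miR-690: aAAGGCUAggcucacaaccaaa
miR-135a*: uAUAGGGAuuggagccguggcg
miR-27a: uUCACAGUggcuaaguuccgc
miR-27b: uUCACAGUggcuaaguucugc
miR-706 lies at chr6:120034290-120034311 on the minus strand, within the span of Wnk1, which encodes a kinase. miR-690 lies at chr16:28599940-28599961 on the minus strand, within the span of Fgf12. miR-494 lies at chr12:109715367-109715388 and miR-27a at chr8:84208727-84208747, both on the plus strand, and neither lies within another listed gene. miR-27a and miR-27b differ at 1 base, C19U counted from the 5′ end of miR-27a. The table of genes gives spans only, so that exons and introns could not be told apart. The names miR-696, miR-467a*, miR-709, miR-699 and miR-801 had no sequence printed here.

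The let-7 miRNAs, which share the seed GAGGUAG, and the miR-17 seed family (AAAGUGC) are shown because they kept apart in promyelocytes.
let-7a: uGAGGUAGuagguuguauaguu
let-7e: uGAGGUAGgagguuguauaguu
let-7g: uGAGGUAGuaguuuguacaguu
miR-17: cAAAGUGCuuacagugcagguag
miR-20a: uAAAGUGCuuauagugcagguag
miR-106a: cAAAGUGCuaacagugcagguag
At the cytoplasmic end, and for both strands of the miR-18a hairpin, the sequences were as follows.
miR-652: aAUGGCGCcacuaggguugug
miR-103: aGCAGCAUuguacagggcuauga
miR-106b*: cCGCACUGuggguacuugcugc
miR-149: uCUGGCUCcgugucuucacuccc
miR-18a: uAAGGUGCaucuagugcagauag
miR-18a*: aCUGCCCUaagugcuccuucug
miR-106b* lies at chr5:138165746-138165767 within the span of Mcm7, a helicase subunit gene whose span also holds miR-93 and miR-25.

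Most of the 90 miRNAs had more template in cytoplasmic RNA, and for 50 of them the CT limit itself favoured this direction. The nuclear CT was the higher in 84 and the lower in 6 (6.67%), against 21.0% of the 286 assays of the whole table with a CT under 40 in either promyelocyte fraction and 12.7% of the 102 assays under 30. The 13 assays behind the 12.7% were these 6 and 7 assays without a name, and the table does not tell whether the latter are miRNAs or control RNAs of the cards. The median nuclear minus cytoplasmic CT was 2.86 cycles, which is 7.27-fold, with quartiles of 2.3 and 3.46 cycles. At least 4-fold less template in nuclear RNA was read for 74 of the 90 (82.2%, against 67.1% of the 286 and 76.5% of the 102 assays), at least 8-fold less for 42 (46.7%, against 49.3% and 45.1%) and at least 16-fold less for 11 (12.2%, against 30.4% and 13.7%). Counting only the 37 miRNAs under 30 in both fractions leaves out larger differences in either direction, mostly the cytoplasmic one. Of these 37, 3 (miR-706, miR-709 and miR-494) had a lower nuclear CT (8.11%, against 18.6% of the 43 assays under 30 in both), 27 were at least 4-fold lower in nuclear RNA (73.0%, against 62.8%), and the median difference was 2.67 cycles. Of the 90, 7 were within 2-fold (7.78%, against 10.8% of the 286 and 7.84% of the 102), and 3 were at least 2-fold higher in nuclear RNA (3.33%, against 14.3% and 9.80%). Across the 86 miRNAs read in both fractions the ratio hardly followed the cytoplasmic CT (Pearson's r 0.09, Spearman's rho 0.12), as a description over assays that share 1 pair of samples and with the cytoplasmic CT on both sides. At the CT limit, miR-322 was the last miRNA inside, at 29.99, and miR-331-3p the first outside, at 30.01. The median nuclear minus cytoplasmic CT was 2.59 cycles for the 12 named assays within 0.5 cycles inside the limit and 4.70 for the 11 within 0.5 cycles outside it.

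**Figure D1:**
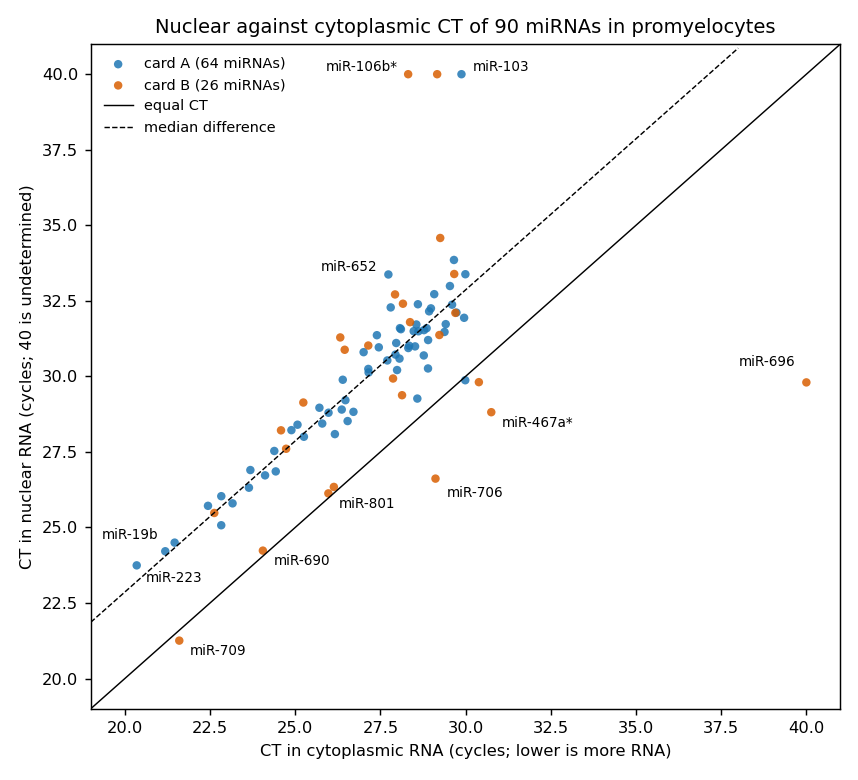
CT in nuclear RNA against CT in cytoplasmic RNA (both in cycles) for the 90 miRNAs of promyelocytes, 1 point for each miRNA, coloured by array card; the solid line marks equal CTs and the dashed line the median difference of 2.86 cycles. Most points follow the dashed line over the whole range, 6 lie under the solid line, and wells at 40 are undetermined.

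The 6 miRNAs with a lower nuclear CT were led by miR-696, whose cytoplasmic well was undetermined (listed at 40) while its nuclear CT was 29.80 and its whole cell CT 30.12. Its difference of 10.20 cycles is set by the 40 at which undetermined wells are listed. miR-696 was listed at 40 in both fractions of the other 3 stages, so that its nuclear signal was read in promyelocytes alone and in a single well. miR-706 had a cytoplasmic CT of 29.12 and a nuclear CT of 26.62, a log2 ratio of 2.50 or 5.66-fold. miR-467a*, a strand from the large miRNA cluster in an intron of Sfmbt2, had CTs of 30.75 and 28.82 and a log2 ratio of 1.94.

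The other 3 were near equality. miR-760 had a cytoplasmic CT of 30.39 and a nuclear CT of 29.81, a log2 ratio of 0.58. miR-709 had CTs of 21.60 and 21.26 and a log2 ratio of 0.34. miR-494 had CTs of 29.99 and 29.87 and a log2 ratio of 0.12. With the divisor of 3 that the study's printed ratios carry, these 3 fell on the cytoplasmic side, at -1.0, -1.24 and -1.47, and only miR-696, miR-706 and miR-467a* stayed above 0. miR-706 was then at 0.92 and miR-467a* at 0.35, so that no miRNA read in both fractions was 2-fold higher in nuclear RNA.

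Another 4 miRNAs had a nuclear CT less than 1 cycle above the cytoplasmic CT. Their log2 ratios were -0.15 for miR-801, -0.18 for miR-690, -0.21 for miR-699 and -0.68 for miR-27a. miR-801 and miR-699 are marked by the study as entries since removed from miRBase, the public miRNA registry, as are miR-720 and miR-805, whose ratios were -2.85 and -3.90. miR-135a* and miR-301b followed at -1.24 and -1.36. Of the 10 highest ratios with both wells under 40, 8 were on card B.

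The 6 miRNAs that the study put forward as candidates for nuclear enrichment were chosen on these same samples, and their ratios are a description. The study then compared them with cytoplasmic control miRNAs by individual RT-qPCR. It reported miR-706, miR-709 and miR-690 as nuclear-enriched at every stage and miR-467a* in LSK cells and promyelocytes only. It reported no enrichment of miR-135a* and miR-142-3p, and it measured the other candidates in cell lines too. They ranked from miR-706 at 2.50 and miR-467a* at 1.94 through miR-709, miR-690 and miR-135a* to miR-142-3p at -2.61, a miRNA of blood cells, which lay close to the median of all 90 (-2.86). The candidates without miR-142-3p were all on card B. Against the median ratio, miR-706 was 41.1-fold and miR-467a* 27.9-fold higher, miR-690 was 6.41-fold higher and miR-142-3p 1.19-fold higher; these values do not change if all ratios are shifted by a constant.

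**Figure D2:**
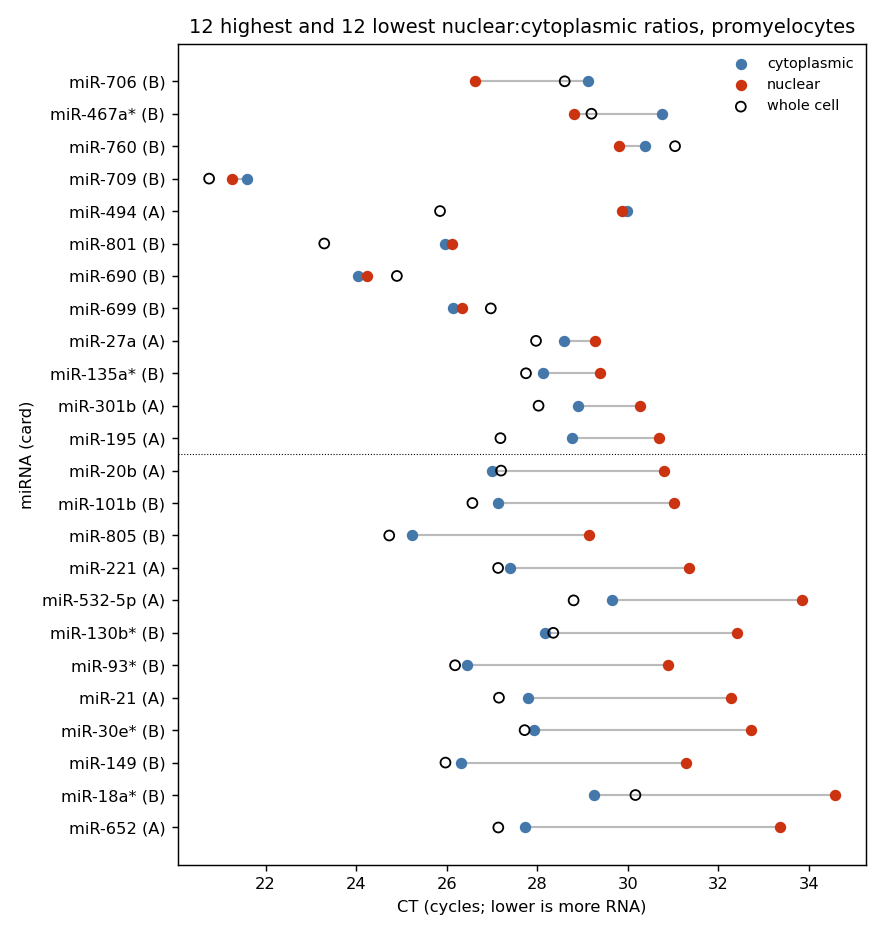
CT in cytoplasmic (blue), nuclear (red) and whole cell (open circles) RNA of promyelocytes, in cycles, for the 12 highest and the 12 lowest nuclear:cytoplasmic ratios among miRNAs read in both fractions, with the array card in brackets and a dotted line between the groups. In the upper group red lies left of blue or less than 2 cycles right of it, with whole cell CTs that depart from both for miR-494 and miR-801; in the lower group red lies from 3.79 to 5.64 cycles right of blue.

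At the other end, 3 miRNAs were read in cytoplasmic RNA and undetermined in nuclear RNA. Their cytoplasmic CTs were 28.32 for miR-106b*, 29.17 for miR-200a* and 29.88 for miR-103. miR-103 and miR-106b* had whole cell CTs of 29.92 and 29.13. miR-200a*, from a hairpin best known in epithelia, was undetermined in whole cell RNA too, so that its cytoplasmic well stood alone.

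Among miRNAs read in both fractions, miR-652 had the lowest ratio, with a cytoplasmic CT of 27.74, a nuclear CT of 33.37 and a log2 ratio of -5.64. It was followed by miR-18a* (-5.32), miR-149 (-4.97), miR-30e* (-4.78), miR-21 (-4.48), miR-93* (-4.43), miR-130b* (-4.24) and miR-532-5p (-4.19). miR-21, which is induced in many myeloid cells and tumours, thus had 22.3-fold less template in the nuclear well. Of the 10 lowest ratios 6 were on card B and 4 on card A.

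The cards had almost the same median and a different spread. The nuclear minus cytoplasmic CT had a median of 2.85 cycles on card A and 2.86 on card B, with interquartile ranges of 0.82 and 3.97 cycles. Among the 37 miRNAs under 30 in both fractions the median log2 ratio of card B was 1.5 above that of card A. On card A 1 of 64 miRNAs had a lower nuclear CT (miR-494), and on card B 5 of 26. The 13 starred strands of card B had a median log2 ratio of -3.72 and its 13 unstarred miRNAs one of -0.21; card A held no starred strand among the 90. The unstarred miRNAs of card B ranged from miR-696 to miR-149. They are mostly later entries of miRBase with names from miR-690 to miR-805. The cards were separate reactions, and the card of an assay was inferred, so that card and kind of miRNA cannot be told apart.

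The lowest CTs were read for nearly the same miRNAs in both fractions. In cytoplasmic RNA the 10 lowest CTs were those of miR-223, miR-19b, miR-17, miR-709, miR-106a, miR-720, miR-191, miR-20a, miR-16 and miR-92a, from 20.35 to 23.64. In nuclear RNA 9 of these 10 were again among the 10 lowest, with miR-690 in place of miR-92a, from 21.26 to 26.04. miR-709 moved from rank 4 in cytoplasmic to rank 1 in nuclear RNA, and miR-690 moved from rank 12 to rank 4. miR-706 moved from rank 72 to rank 14, while miR-652 moved from rank 42 to rank 83. Assays differ in efficiency, so that the order of CTs is not an order of molecule numbers. The part of cytoplasmic miRNA left in the nuclear fraction in this shared order was not tested.

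miR-223, the best known miRNA of the granulocytic lineage, had a cytoplasmic CT of 20.35 and a nuclear CT of 23.75, the second lowest nuclear CT after miR-709. Its log2 ratio of -3.40 was below the median. Among the 7 named markers of the granulocytic lineage, 6 passed the CT limit, with log2 ratios from -2.22 for miR-155 to -4.48 for miR-21. miR-155 did not behave as a marker of this lineage here, since its whole cell CT rose from 26.06 in LSK cells through 27.36 and 28.89 to 30.11 in granulocytes. miR-146a had whole cell CTs of 25.32, 27.36, 24.43 and 25.93 from LSK cells to granulocytes, with no steady direction. Those of miR-223, miR-142-3p, miR-24 and miR-21 were lower in granulocytes than in LSK cells. The named markers of epithelium (miR-200b, miR-200c and miR-203), of neurons (miR-9 and miR-124) and of muscle (miR-1, miR-133b and miR-206) were all at a CT of 30 or more in both fractions, and miR-486, an erythroid marker, was undetermined in both. The starred miR-200a strand, of an epithelial hairpin but not on the marker list, passed the limit in the cytoplasmic well. The progenitor markers miR-196b, miR-222, miR-126-3p, miR-126-5p and miR-221 passed the limit, 5 of 10 named, with ratios from -2.09 to -3.97. The lymphoid markers miR-150 and miR-181a passed it as well, at cytoplasmic CTs of 29.60 and 29.54. Other cells in the sort and expression in promyelocytes were not told apart.

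miRNAs with a common seed had ratios that lay from 0.055 to 2.06 apart. Of 47 seeds among the 68 sequences, 11 were shared, by 32 miRNAs in all. The spread within a seed was under 0.5 for 4 of the 11 and from 0.76 to 2.06 for 7, beside interquartile ranges of 1.15 for all 90 miRNAs and 0.82 for those of card A. The narrowest pairs were miR-25 and miR-92a (-2.62 and -2.67), miR-29a and miR-29c (-3.33 and -3.46), miR-26a and miR-26b (-2.82 and -2.97) and miR-19b and miR-19a (-3.03 and -3.22). The members of a family are near-identical sequences that neighbouring assays can partly share, so that they are not independent readings. The widest seed was that of miR-27a and miR-27b, whose ratios of -0.68 and -2.74 lay 2.06 apart although their sequences differ at 1 base. Their cytoplasmic CTs were 28.58 and 28.86, and the gap came from the nuclear CTs of 29.27 and 31.59.

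The let-7 and miR-17 seed families did not overlap in promyelocytes. Of the 7 named let-7 family members, miR-98 missed the CT limit. The let-7 family, known for its rise as cells differentiate, ran from -1.92 for let-7g through let-7a (-1.98), let-7e (-1.98), let-7c (-2.30) and let-7i (-2.54) to -2.78 for let-7d. All 6 were above the median of the 90. The AAAGUGC family, which promotes proliferation and is encoded by the Mir17hg cluster and its paralogs, ran from -3.04 for miR-17 to -3.79 for miR-20b, and all 6 were below the median. In the other stages the ranges overlapped. LSK cells had let-7 ratios from -4.59 to -3.33 and AAAGUGC ratios from -4.90 to -3.54. In myelocytes the ranges were -6.12 to -2.85 and -5.56 to -3.70, and mature granulocytes gave -3.03 to -1.79 and -3.08 to -2.36. The family medians were -2.14 and -3.30 in promyelocytes, -2.06 and -2.90 in granulocytes, -4.23 and -4.14 in LSK cells and -4.06 and -4.12 in myelocytes. With 1 sample per stage no test of this difference between stages was possible.

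Of the wider lists, all 11 miRNAs of the Mir17hg cluster and its paralogs were at least 4-fold lower in nuclear RNA, as were 82.2% of the 90, and their median log2 ratio was -3.20 against -2.86. The 5 miRNAs of the miR-30 family had a median of -3.25 and a range from -3.79 (miR-30d) to -2.65 (miR-30c). The miR-15/16 family had 4 of 6 named miRNAs under the limit, with miR-195 at -1.92, miR-15b at -2.12, miR-16 at -2.64 and miR-322 at -3.39. Of 12 named strands from the Sfmbt2 intron cluster, miR-467a* alone passed the CT limit.

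In promyelocytes the passenger strand lay lower than its partner in 5 of 7 hairpins. Both strands of 7 hairpins were among the 90, with the unstarred strand on card A and the starred strand on card B in each. The starred strand had the lower ratio for miR-18a (-2.82 against -5.32), miR-30e (-3.10 against -4.78), miR-93 (-3.33 against -4.43) and miR-130b (-3.16 against -4.24). The starred miR-106b strand was undetermined in nuclear RNA, with its partner at -3.49. The strands of miR-15b were close (-2.12 and -2.06), and those of miR-425 had the opposite order (-3.22 against -2.40). The order was not the same at every stage. The starred minus the unstarred ratio of miR-18a was 1.55 in LSK cells and 1.46 in myelocytes, against -2.50 in promyelocytes and -6.02 in granulocytes, where the nuclear well of the starred strand was undetermined. That of miR-15b was -2.73, -1.65 and -1.37 in LSK cells, myelocytes and granulocytes. For miR-93 it was 0.53, -0.16 and 0.17 in these stages, and for miR-30e, miR-130b and miR-106b it was negative at all 4 stages. Over all 13 passenger strands the median was -3.72, against -2.86 for the 90, and miR-467a* alone had a lower nuclear CT.

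**Figure D3:**
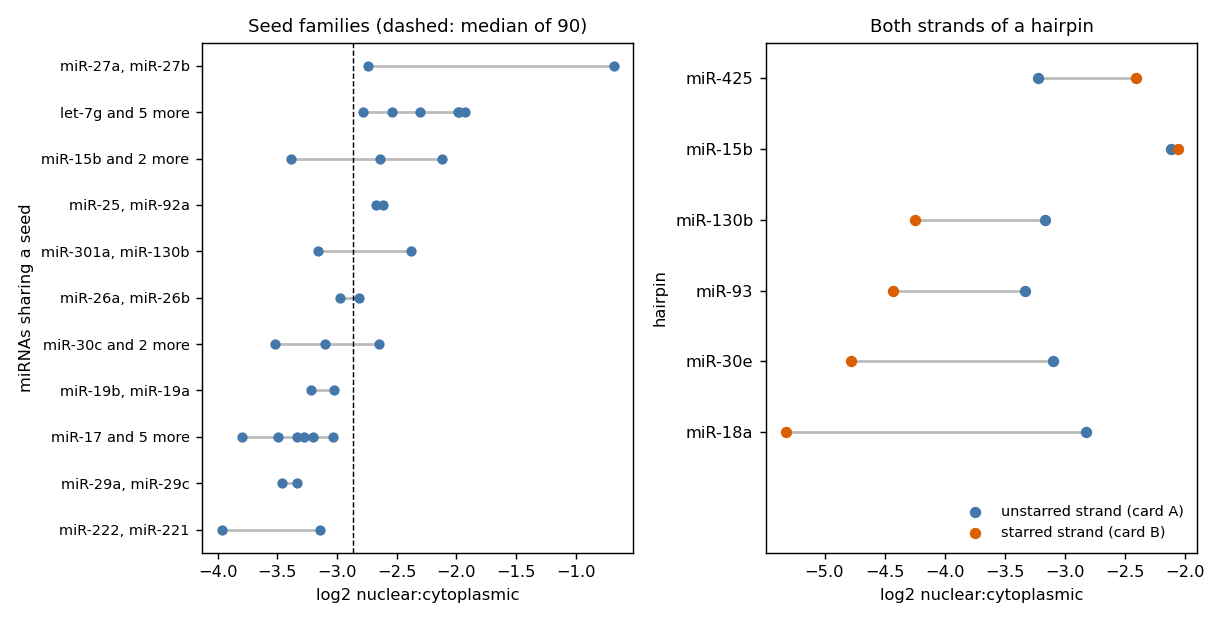
Log2 nuclear:cytoplasmic ratio in promyelocytes of miRNAs that share a seed (left, 1 point for each miRNA, dashed line at the median of the 90) and of both strands of 6 hairpins read in both fractions (right). The let-7 and miR-17 families lie on opposite sides of the median, miR-27a stands apart from miR-27b, and the starred strand lies lower in 4 of the 6 hairpins.

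The ratio followed neither base composition nor length closely. Over the 65 miRNAs with a sequence and a CT under 40 in both fractions, Pearson's r of the ratio was -0.08 with GC content (27.3% to 70.0%) and -0.14 with length (19 to 23 bases), and Spearman's rho was -0.17 and -0.16. The hexamer AGUGUU, described as a nuclear import signal of miR-29b, was in 0 of the 68 sequences. miR-29b itself missed the CT limit and was not among them, so that this count says nothing about the signal.

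Parts of the miR-706 sequence were also found in many promoter windows. In a comparison chosen after the values were seen, all stretches of 14 bases of the 68 mature sequences were searched on both strands of 32817 promoter windows of 300 bases, leaving out the windows of the miRNA's own gene. A stretch of miR-706 occurred in 62 windows (0.189%), more than for any of the other 67. miR-877*, a pyrimidine-rich strand, followed with 19 windows, and 38 miRNAs had 0. With stretches of 16 bases miR-706 had 34 windows, miR-690 3 and 59 miRNAs 0, but with 12 bases miR-877* led with 195 windows, followed by miR-706 with 115 and miR-690 with 111, against a median of 9. Other miRNAs with high ratios had few windows. With 12, 14 and 16 bases miR-494 had 2, 0 and 0, miR-135a* 15, 0 and 0, miR-760 36, 1 and 0, and miR-27a 13, 1 and 0. miR-696, miR-467a* and miR-709 had no sequence to search. The letters of miR-706 occur in the B1 family of mouse repeats. A match says only that the letters are there, and its part in the nuclear CT was not tested.

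Whole cell RNA of the same stage was read as well. For 77 of the 90 (85.6%, against 70.7% of 242 assays under 40 in whole cell RNA and in either fraction) the whole cell CT was below both fraction CTs, and for 9 it lay between them. The whole cell CT minus the cytoplasmic CT had a median of -0.60 cycles and the whole cell CT minus the nuclear CT one of -3.59, and 71 miRNAs were within 1 cycle of the cytoplasmic CT. Whole cell miR-706 (28.61) and miR-467a* (29.20) lay between the fractions. Apart from miR-696 and miR-200a*, which had wells at 40, the widest gaps between whole cell and cytoplasmic CT were those of miR-494 and miR-801, both near equality. Whole cell miR-494 had a CT of 25.85 and a whole cell minus cytoplasmic CT of -4.14, and miR-801 had 23.30 and -2.68. In the opposite direction the widest gaps were those of miR-674* (1.25) and miR-18a* (0.91). Their log2 ratios were -3.72 and -5.32, far from equality, and their whole cell CTs lay between the fractions. miR-690 (24.90), miR-699 (26.98) and miR-760 (31.04) had whole cell CTs above both fractions.

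The promyelocyte ratios were then set beside the other stages for the 81 miRNAs with a CT under 40 in all 8 fraction wells. Promyelocytes had a median log2 ratio of -2.85, above the -4.18 of LSK cells and the -3.92 of myelocytes and below the -2.53 of granulocytes. The ratio in promyelocytes was above that in LSK cells for 75 of 81 (92.6%, against 84.8% of all 132 assays read in the 8 wells), above that in myelocytes for 71 (87.7%, against 80.3%) and above that in granulocytes for 29 (35.8%, against 43.2%). It was the highest of the 4 stages for 27 (33.3%, against 35.6% of the 132), while 52 were highest in granulocytes (64.2%, against 53.8%). The median of promyelocytes minus LSK cells was 1.32 on card A and 0.88 on card B, minus myelocytes 1.14 and 1.41, and minus granulocytes -0.20 and -0.27.

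Against LSK cells and myelocytes most of the 81 moved the same way, while against granulocytes they went both ways. The SD of the difference over miRNAs was 0.98 against LSK cells, 1.16 against myelocytes and 1.24 against granulocytes. The median difference of promyelocytes minus LSK cells was -0.06 cycles in nuclear CT and 1.12 cycles in cytoplasmic CT. Minus myelocytes it was -0.52 in nuclear and 0.80 in cytoplasmic CT. Minus granulocytes it was 0.99 and 0.96. The 7 unnamed assays, picked for a lower nuclear CT in promyelocytes, had median log2 ratios of 3.25, 6.03, 2.96 and 1.01 from LSK cells to granulocytes. Set against these assays, the number of the 81 highest in promyelocytes went from 27 to 0. The median of promyelocytes minus the mean of the other stages then went from 0.78 to -2.84. The direction of the stage differences thus depends on the scale between stages, and the part of these assays in it was not tested.

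After the median of each stage was subtracted, 23 of the 81 were highest and 25 lowest in promyelocytes. Across the 81 the promyelocyte ratios followed those of LSK cells (Pearson's r 0.77, Spearman's rho 0.53), of myelocytes (0.67 and 0.57) and of granulocytes (0.47 and 0.38), as a description over assays that share cards and samples. By this measure 3 miRNAs were above every other stage by 1 or more: miR-15b* by 1.88, miR-494 by 1.56 and miR-27a by 1.5. miR-467a* (0.97), miR-301b (0.95) and let-7g (0.93) followed. miR-706 was above its next stage, LSK cells, by 0.40 (5.35 against 4.95), while miR-709 (3.20 against 3.68) and miR-760 (3.44 against 4.29) were lower than in LSK cells. miR-674* alone was below every other stage by 1 or more, with a margin of -1.35.

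Of the miRNAs with a lower nuclear CT in promyelocytes, miR-706 and miR-760 also had one in LSK cells (log2 ratios of 0.77 and 0.11), and none of the 5 read in all 8 wells had one in myelocytes or granulocytes. These 5 were picked for their promyelocyte ratio, so that lower ratios at the other stages follow in part from the choice. miR-467a* and miR-760 also passed the CT limit through the nuclear promyelocyte well alone, which fixed their sign there. The promyelocyte ratio minus the mean of the other stages was 3.28 for miR-467a*, 3.10 for miR-494, 2.64 for miR-706, 1.17 for miR-709 and 1.07 for miR-760, beside a median of 0.78 over the 81. miR-494 went from 0.12 in promyelocytes to -2.77 in LSK cells, -3.92 in myelocytes and -2.24 in granulocytes. miR-699 was higher in LSK cells (1.57) than in promyelocytes (-0.21). miR-27a had ratios of -4.72, -0.68, -3.25 and -2.15 from LSK cells to granulocytes, and miR-27b ratios of -4.74, -2.74, -6.09 and -1.86. These near-identical miRNAs thus had almost the same ratio in LSK cells and not in promyelocytes or myelocytes.

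**Figure D4:**
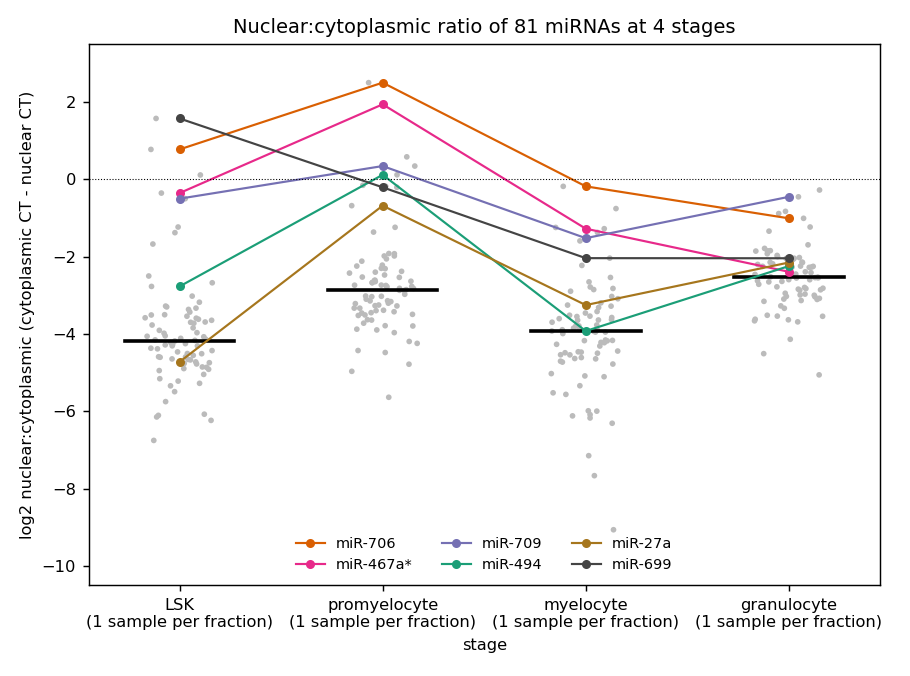
Log2 nuclear:cytoplasmic ratio (cytoplasmic CT minus nuclear CT) of 81 miRNAs at the 4 stages, 1 grey point for each miRNA, with the median of each stage as a black bar and 6 miRNAs joined by coloured lines. The medians of promyelocytes and granulocytes lie above those of LSK cells and myelocytes, and miR-706, miR-467a*, miR-709, miR-494 and miR-27a are highest in promyelocytes before the stage medians are subtracted, while miR-699 falls from LSK cells.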

How the data were processed

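The authors reverse transcribed RNA from sorted C57BL/6 bone marrow cells with rodent Megaplex primers, ran TaqMan rodent microRNA A and B cards v2.0 on an ABI 7900HT instrument, and deposited CT values without normalization. The deposited values are scores in cycles, with undetermined wells at 40. The table has 12 data columns, all mapped to samples by their titles, and 593 numbered assays. The card is not labelled. Assays up to the last one whose CTs had the most decimals were set to card A (377) and the later ones to card B (216). Assays were named where all 8 fraction CTs equalled those the study prints with a name, within 0.0005 cycles (246 assays), or else where the whole cell differences matched within 0.002 (23 assays). No name conflict was found among 106 assays named both ways. The printed names were read from page images. Of the 90 miRNAs, 75 were named in the first way and 15 in the second.

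The members and lists were chosen with earlier results of these data known. Named miRNAs are those with a lower nuclear CT, the 10 highest and 10 lowest ratios, those undetermined in 1 fraction, the 10 lowest CTs of each fraction, and members of fixed families, the study's nuclear candidates, passenger strands, removed entries and cell type markers. Ratios assume 2-fold amplification per cycle. With 1 sample per group, counts and medians are given beside those of all assays read, and no test was run. The depth is unknown for RT-qPCR, and 1 well per assay sets the precision. The calculation was tested on simulated CTs. Alternatives changed the CT limit, the value of undetermined wells, the names used, the members, the amplification, a divisor of 3 and, chosen after seeing the data, the CT limit in both fractions, the card, the passenger strands and the scale between stages. Mature sequences and gene spans are from RefSeq (GRCm38.p6). Computations used Python 3.11.15, numpy 2.4.6, pandas 2.3.3 and matplotlib 3.10.9.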

Additional observations from a re-analysis of the deposited data

Results flagged for a closer look

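With 1 sample per stage, the differences below were not tested. For 6 miRNAs the sign of the log2 nuclear:cytoplasmic ratio in promyelocytes was opposite to that of at least 1 other stage with both wells under 40. miR-706 was at 2.50 in promyelocytes and at -0.18 in myelocytes and -1.01 in granulocytes. miR-467a* was at 1.94 in promyelocytes and at -0.36, -1.28 and -2.39 in LSK cells, myelocytes and granulocytes. miR-760 was at 0.58 in promyelocytes and at -0.76 and -0.83 in myelocytes and granulocytes. miR-709 was at 0.34 in promyelocytes and at -0.50, -1.52 and -0.45 in the other stages. miR-494 was at 0.12 in promyelocytes and at most -2.24 elsewhere. miR-699 was at -0.21 in promyelocytes and at 1.57 in LSK cells. These signs rest on the unsettled zero of the ratio. With the divisor of 3, miR-706 and miR-467a* still changed sign, while miR-760, miR-709, miR-494 and miR-699 were negative at all 4 stages. Relative to the stage medians, no one of miR-706, miR-467a*, miR-760, miR-709 and miR-699 changed sign, and each was positive at all 4 stages.

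Outside the 90 miRNAs, 7 of 12 unnamed assays with a CT under 30 had a lower nuclear than cytoplasmic CT in promyelocytes. The table does not tell whether they are miRNAs or control RNAs of the cards. Their log2 ratios were 6.87, 6.26, 6.18, 6.03, 5.60, 5.27 and 3.98, each above the 2.50 of miR-706. The first 6 were also positive in LSK cells, myelocytes and granulocytes, but with the divisor of 3 they were negative in granulocytes, between -0.83 and -0.13. All 7 were highest in promyelocytes by over 2 units, on both cards.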

How the results depend on the processing

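No paired analysis was possible within promyelocytes or between stages because each fraction and stage has 1 sample; a comparison of the fractions paired over the 4 stages was not run. Without replicates, a result was taken as moved where it changed by more than 1.5 times or changed sign; 59 of 91 alternative values were not moved, and the causes were not tested except where the setting itself fixes the value. Signs turned for the card difference and for promyelocytes minus the other stages, which were -0.0127 and 0.78 as reported. The number of miRNAs with a lower nuclear CT (6) was 2, 10 and 26 at CT limits of 28, 32 and 35, 13 with all assays, 3 with the divisor of 3, 3 with CTs under 30 in both fractions (37 miRNAs) and 1 on card A alone. The number at least 4-fold lower in nuclear RNA (74) was 42 at a limit of 28, 144 at 35, 27 with both under 30 and 17 on card B alone, as fewer or more miRNAs were counted. The card difference in the median log2 ratio (-0.01) was 0.16 at 28, -0.29 at 35 (with 190 miRNAs), -0.0302 without undetermined miRNAs, 0.19 with all assays, 0.42 with names from the fraction CTs only, -0.30 without removed entries, 1.5 with both under 30 and 2.64 without passenger strands. The number highest in promyelocytes (27) was 16 at 28, 17 with both under 30 and 9 on card B. Set against the unnamed assays it was 0, and the median of promyelocytes minus the other stages went from 0.78 to -2.84. These 7 assays were picked for a lower nuclear CT in promyelocytes, which favours this direction but does not fix its size. Their median log2 ratio was 6.03 in promyelocytes, against 3.25, 2.96 and 1.01 in LSK cells, myelocytes and granulocytes. The number with a whole cell CT between the fractions (9) was 2, 15 and 33 at limits of 28, 32 and 35, 17 with all assays, 1 with both under 30, 2 on card A and 4 without passenger strands. The median difference of 2.86 cycles was 4.45 with the divisor of 3 and between 2.67 and 3.15 in the other settings run for it. Of 270 values of single miRNAs under other settings, 261 stayed on their side of 2-fold; the 9 others, all under the divisor of 3, were the ratios of miR-706 (0.92), miR-467a* (0.35), miR-760, miR-709, miR-494, miR-801, miR-690, miR-699 and miR-27a.

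A single well per assay, 40 as the value of undetermined wells and the unsettled RNA input of the fractions limit the ratios. Above a CT of 30 and for the 3 nuclear wells and 1 cytoplasmic well at 40, the ratios rest on detection.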
